A study of Brassica napus with 14 samples.

Results

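In 109 of 6099 homoeologous gene pairs of Brassica napus (oilseed rape), the A copy stood at least 2-fold above the C copy at every stage measured, from the ovule to the mature seed. A pair was an Arabidopsis locus that the authors' table gives to exactly 2 genes, 1 on an A chromosome (BnaN01 to BnaN10) and 1 on a C chromosome (BnaN11 to BnaN19). The sum of A and C had to reach 2 FPKM, and (A + 1)/(C + 1) had to reach 2, at all 5 stages. FPKM is a level per transcript length, scaled to the number of fragments mapped, so levels of different genes can be compared. The sum reached 2 FPKM throughout in 2625 pairs, of which 109 (4.15%) were always higher on A and 77 (2.93%) always higher on C. The pairs were thus chosen by the A and C FPKM values at all 5 stages, so their ratios are a description and no test is attached to them.

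Polyadenylated RNA came from cultivar DH12075, grown in chambers under long days and pollinated by hand. All groups are this 1 cultivar, with no other genotype and no treatment, and differ in tissue (ovule or seed) and age. Whole ovules (OV, day 0) gave 3 libraries, and whole seeds gave 3 at 7 days after fertilization (GLOB), 3 at 10 days (HEART), 3 at 28 days (MG) and 2 at 35 days (DS). For each gene the deposited table holds 1 FPKM value a stage. The spread between libraries and their depth are therefore unknown, and no difference below could be set against replicate error. Genes that mark seed stages followed the labels. Summed over its copies, LEC1, a regulator of early embryo development, had 65.7 FPKM at HEART and at most 0.677 at the other stages. The oil-body gene OLEO1 had 91892 FPKM at MG, and EM6, a gene of late embryo maturation, had 44833 FPKM at DS. In such bulk tissue, fewer cells of a type and less RNA per cell cannot be told apart.

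B. napus is an allotetraploid that arose from the hybridization of B. rapa, the source of the A subgenome, and B. oleracea, the source of the C subgenome. Most genes therefore have a homoeologue, the corresponding gene on the other subgenome. The copies of a pair can share transcription evenly, or 1 copy can supply most of the transcript. Segments of A and C chromosomes in this species are also known to be exchanged or lost between homoeologous chromosomes.

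In most of these pairs the C copy was hardly detected. Its level stayed under 1 FPKM at every stage in 69 of the 109 pairs, and it was listed at 0 throughout in 14 of them. It reached 1 FPKM at some stages in 23 pairs and at all stages in 17. Averaged over stages, the C copy had a median of 0.682% of the level of its A copy, whereas it had 102% in the 2516 other pairs with a sum of at least 2 FPKM. The median of the pairs' median log2 ratios, taken as log2((A + 1)/(C + 1)), was 3.05 in the 109 pairs and -0.04 in the other pairs. The summed level was similar, with a median of 15.1 FPKM against 13.8 FPKM in the other pairs. How the authors assigned reads shared by near-identical copies is not given in the sources used here, so the level of each single copy carries that uncertainty.

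**Figure D1:**
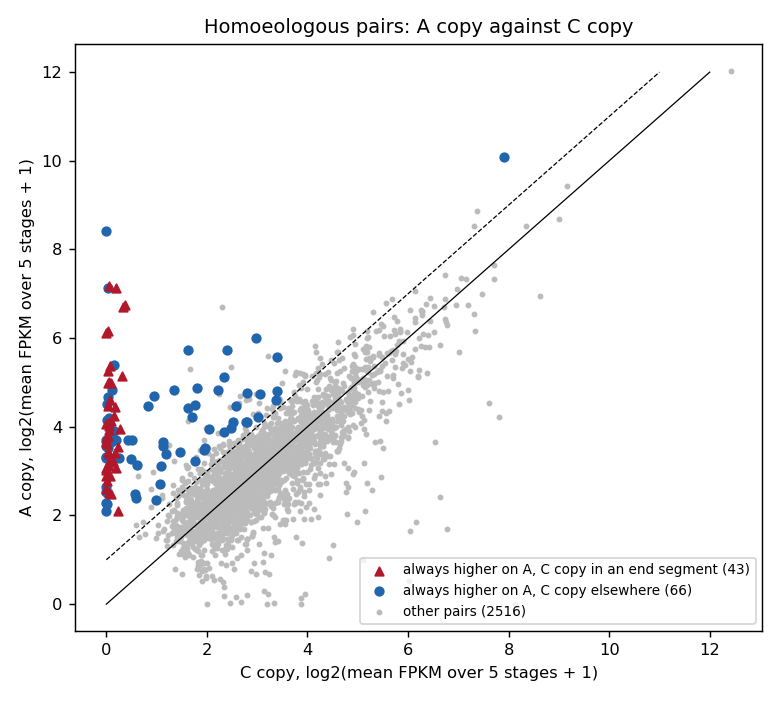
Mean level of the A copy (vertical) against the C copy (horizontal) as log2(mean FPKM over 5 stages + 1), 1 point per pair with a sum of at least 2 FPKM at every stage. The solid line marks equal levels and the dashed line an A level 2-fold higher on this scale. The 43 red triangles (C copy in an end segment of BnaN11 or BnaN12) line up at a C level near 0, while the 66 blue circles reach from 0 up to MT2B at the upper right.

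The pairs were unevenly spread over the genome. Of the 109, 28 joined BnaN01 with BnaN11 (562 of all 6099 pairs) and 21 joined BnaN02 with BnaN12 (414 of all). BnaN03 with BnaN13, with 568 of all pairs, had 6 of the 109. Another of the 109 lay within 50 genes on both chromosomes in 43 pairs (39.4%). Among the pairs always higher on C, a smaller set, 12 of 77 (15.6%) had such a neighbour. A share over all pairs was not taken. To see whether the members' surroundings were also low, the share of detected genes (1 FPKM or more at some stage) was taken in windows of 50 consecutive genes, using only genes that belong to no pair. A window was called low when under 15% of its genes were detected, and an end segment was a run of at least 5 low windows from a chromosome end in which at least 75% of windows were low. These settings were chosen after the members' positions were known. Of 1844 windows, 29 were low and 19 of these made up just 2 end segments.

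The segment at the end of BnaN11 held 487 genes (BnaN11g46810 to BnaN11g51680), and that at the start of BnaN12 held 500 (BnaN12g00010 to BnaN12g05000). On BnaN11, 11.1% of the genes of no pair were detected in the segment, against 45.3% on the rest of that chromosome. On BnaN12 the shares were 3.73% in the segment and 41.9% on the rest. The low shares in the segments follow from how these were drawn. The change was abrupt on BnaN12, where the next window inwards stood at 42.6%, and less so on BnaN11, where it stood at 15.2%. The A chromosomes showed no such run at the matching ends.

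**Figure D2:**
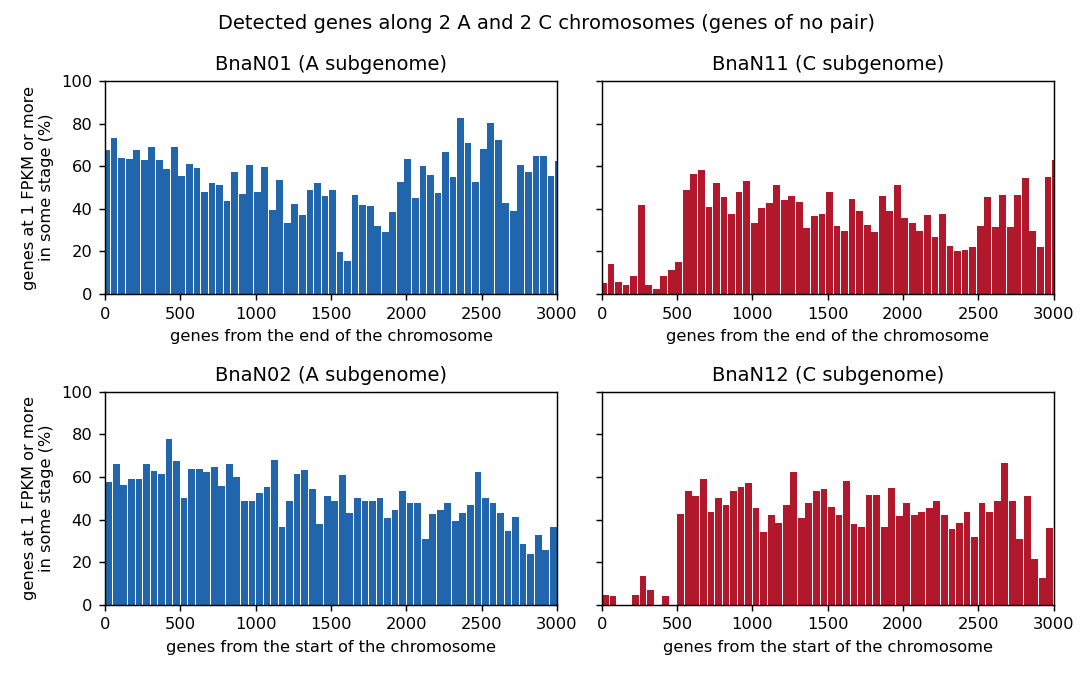
Share of genes at 1 FPKM or more in some stage (vertical, %) in windows of 50 consecutive genes, counting those of no pair, by distance in genes from the chromosome end (horizontal). BnaN01 and BnaN02 (A, blue, left) stay above 15% near the end shown, while BnaN11 and BnaN12 (C, red, right) are low over the first 487 and 500 genes, apart from 1 window of BnaN11 at 42.0%.

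All 43 pairs with a C copy in these segments and a sum of at least 2 FPKM were always higher on A, 22 on BnaN11 and 21 on BnaN12 (100%, against 2.56% of such pairs elsewhere). The segments held 1.64% of the pairs with that sum and 39.4% of the pairs always higher on A. Since a C copy near 0 leaves a pair with this sum little room to miss the rule, the count restates the low C levels in the segments. None of the 77 pairs always higher on C lay there. Elsewhere, 66 of 2582 pairs were always higher on A and 77 (2.98%) always higher on C. At single stages, more pairs were at least 2-fold higher on A than on C, and without the segments this was so only at GLOB. Stretches with C near 0 hold hardly any pair higher on C, so leaving them out could only shift the counts away from A. At OV, 364 pairs (9.46% of 3846) were at least 2-fold higher on A and 319 (8.29%) on C, and without the segments these counts were 308 (8.13%) on A and 319 (8.42%) on C. At HEART they were 473 (12.2%) on A and 431 (11.1%) on C, and without the segments 417 (10.9%) on A and 431 (11.3%) on C. At DS they were 574 (16.9%) on A and 566 (16.7%) on C, and without the segments 526 (15.7%) on A and 566 (16.9%) on C.

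The A partners lay mostly on the corresponding chromosomes. Of the 43 pairs, 41 had their A copy on BnaN01 or BnaN02, and the other 2, AT5G04480 and AT5G08620 (RH25, a DEAD-box RNA helicase), had it on BnaN10. Their Arabidopsis loci were on chromosome 3 in 21 pairs and on chromosome 5 in 20, as runs such as AT3G10300 next to AT3G10290 and AT5G02790 next to AT5G02800. The C copy was under 1 FPKM at every stage in all 43 and listed at 0 in 6. The same held for pairs with lower sums, since 90 of all 91 pairs with a C copy in the segments had it under 1 FPKM throughout. Genes whose Arabidopsis locus has more than 2 genes were low too, but they belong to no pair, and their low detection was used to draw the segments. Of 834 such genes in the segments, 7.07% were detected, against 50.4% of such genes elsewhere on C.

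Under a limit on the sum, the median A copy opposite the segments was above the median of both copies together in other pairs, except at DS. Among pairs with a sum of at least 1 FPKM at some stage, 72 had their C copy in a segment and 4875 had it elsewhere. The median A copy of the 72 pairs had 7.87 FPKM at OV, 8.04 at GLOB, 7.67 at HEART, 7.67 at MG and 5.74 at DS. In the 4875 pairs the median A copy had 3.39, 2.98, 3.09, 2.70 and 2.61 FPKM at the same stages, and the median of A and C together was 7.17, 6.43, 6.69, 5.94 and 5.99 FPKM. The A copies opposite the segments were thus higher than A copies elsewhere at every stage, and at DS their median lay slightly under the summed one.

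**Figure D3:**
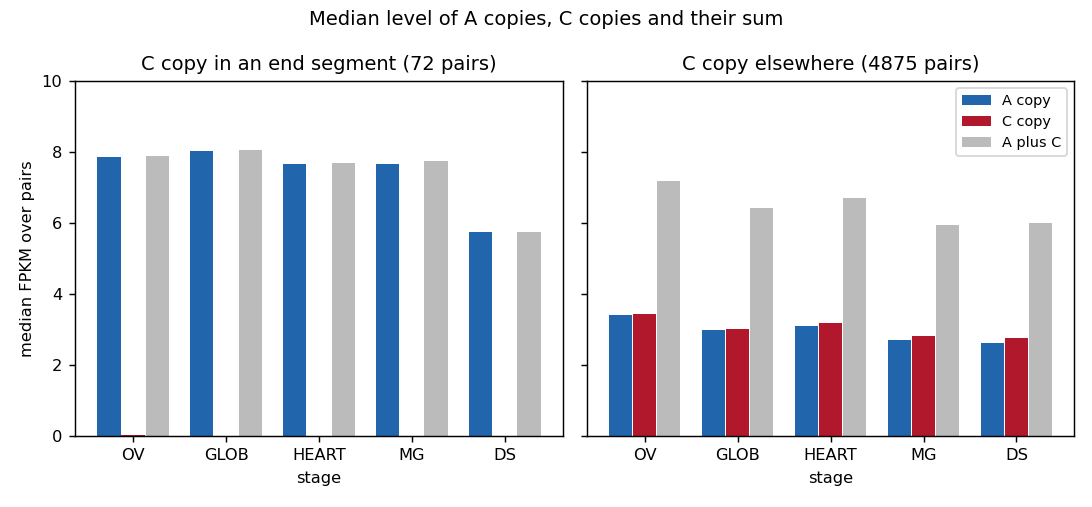
Median FPKM over pairs (vertical) of the A copy (blue), the C copy (red) and their sum (grey) at each stage (horizontal), for 72 pairs with the C copy in an end segment (left) and 4875 pairs with it elsewhere (right). On the left the A bar almost equals the sum and the C bar is at or near 0, and on the right the A and C bars are about equal.

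A genes of no pair in the same regions were high as well. The regions were the spans from the 5th to the 95th percentile of the positions of the A partners, BnaN01g36570 to BnaN01g39610 and BnaN02g00800 to BnaN02g04850. The 177 detected genes of no pair in the BnaN01 span had a median between 6.68 FPKM (DS) and 7.66 FPKM (GLOB), against 3.11 to 4.10 FPKM for such genes on the rest of BnaN01. The 232 in the BnaN02 span had a median between 5.30 FPKM (MG) and 7.34 FPKM (HEART), against 2.30 to 3.49 FPKM on the rest of BnaN02. Over the 400 outermost genes of every A chromosome end, the end of BnaN01 and the start of BnaN02 had the highest medians of all ends at OV, HEART, MG and DS. At GLOB the end of BnaN01 was highest (7.58 FPKM), and the start of BnaN02 and the end of BnaN05 shared a median of 5.52 FPKM. What sets these levels was not tested.

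In the segments, HDA19, a histone deacetylase of transcriptional repressor complexes, had an A copy at 145, 105, 110, 94.5 and 61.8 FPKM from OV to DS, and a C copy at 0.352 FPKM or less. Its A copy was thus highest in the ovule and lowest in the oldest seed. LBD41, a LATERAL ORGAN BOUNDARIES domain transcription factor, had an A copy at 17.7, 129, 189, 7.62 and 7.83 FPKM from OV to DS, and a C copy at 0.0818 FPKM or less. The A copy of LBD41 was highest in the young seed. SEC, an O-linked N-acetylglucosamine transferase, had 28.5, 18.9, 35.6, 13.8 and 76.3 FPKM from its A copy, against 0.786 FPKM or less from its C copy. BPM4, an adaptor of a ubiquitin ligase, HPR1, a subunit of the THO complex in mRNA export, and MED7A, a Mediator subunit, had A copies between 13.1 and 52.5 FPKM at all stages. Their C copies had 0.519 FPKM or less.

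GSTL3, a lambda-class glutathione transferase, had an A copy at 26.3, 68.7, 57.5, 486 and 79.2 FPKM from OV to DS, and a C copy at 0.103 FPKM or less. AT3G08640 had an A copy at 42.8, 108, 70.2, 302 and 170 FPKM, and a C copy at 0.247 FPKM or less. Both A copies were highest at MG. AT3G10300 had A at 76.4, 164, 161, 73.6 and 55.7 FPKM, highest in the young seed, and C at 0.731 FPKM or less. AT5G08320 had A at 22.4, 31.9, 26, 79.7 and 182 FPKM, highest at DS, and C was listed at 0 throughout. TGD4, which takes part in lipid transfer from the endoplasmic reticulum to the plastid, stayed between 11.4 and 15.2 FPKM on A, with C at 0.0966 FPKM or less. CS26, a plastid enzyme of the cysteine synthase family, had A at 7.30, 3.53, 4.94, 14.4 and 27.6 FPKM, and C was listed at 0 throughout.

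EMB175, a pentatricopeptide repeat protein needed for embryo development, had A between 4.63 and 13.7 FPKM and C at 0.00845 FPKM or less. PTAC3, a component of plastid transcription, had A between 3.24 and 11.6 FPKM and C at 0.162 FPKM or less. PAI1, a phosphoribosylanthranilate isomerase of tryptophan synthesis, had A between 6.16 and 26.5 FPKM, with C at 0.153 FPKM or less.

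The 66 pairs outside the segments differed in position and in the level of the C copy. Only 2 of them had another of the 109 within 50 genes on both chromosomes, against 41 of 43 in the segments. The 43 were packed into the segments, where every pair with the sum was a member, so a near neighbour was almost given. The C copy of the 66 pairs was under 1 FPKM at every stage in 26 pairs, reached 1 FPKM at some stages in 23 and at all stages in 17. The median of their median log2 ratios was 2.62, against 3.68 in the segments. Averaged over stages, the C copy had a median of 8.55% of the A level outside the segments and 0.214% in them.

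Many of these 66 pairs joined chromosomes that rarely pair in the table. The 6099 pairs fell into combinations of an A and a C chromosome, of which 25 had 28 to 568 pairs and 54 had 1 to 13 pairs. The 54 rare combinations (under 20 pairs, a limit set after seeing this gap) held 2.87% of all pairs and 2.21% of those with a sum of at least 2 FPKM. They held 20 of the 66 pairs always higher on A outside the segments (30.3%) and 12 of the 77 pairs always higher on C (15.6%). Put the other way, 35.7% of the 56 pairs with that sum on rare combinations outside the segments were always higher on A and 21.4% always higher on C. On frequent combinations outside the segments these shares were 1.82% on A and 2.57% on C. Unequal pairs in either direction were thus more frequent on rare combinations. Whether the genes of a rare combination descend from 1 ancestral gene was not tested.

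Of the 8 pairs outside the segments whose C copy was listed at 0 at every stage, 6 were on rare combinations. SUN2, a nuclear envelope protein, was one, with A on BnaN05 at 7.67, 8.95, 9.0, 8.93 and 10.5 FPKM from OV to DS and C on BnaN11 at 0. Its C copy, BnaN11g46240, lay inwards of the BnaN11 segment, close to it. The locus AT2G34590, which encodes a subunit of plastid pyruvate dehydrogenase, had A on BnaN09 at 2.77, 6.15, 10.1, 32.3 and 9.15 FPKM, and C on BnaN14 at 0. RHF2A, a RING-finger protein of gametophyte development in Arabidopsis, had A on BnaN02 between 2.09 and 7.27 FPKM, and C on BnaN18 at 0. Housekeeping genes with many near-identical relatives were also on rare combinations, and their copies are especially uncertain. RPL12A, a protein of the large ribosomal subunit, had A between 16.1 and 62.0 FPKM and C at 0.419 FPKM or less. AT1G07930, which encodes the elongation factor EF1-alpha, had A between 7.47 and 22.8 FPKM and C at 0.219 FPKM or less.

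Outside the segments, GLX1, CAT1 and SAPX encode enzymes that detoxify reactive compounds. They are set together here for description, and the share of such enzymes among all pairs was not taken. GLX1, a glyoxalase that removes methylglyoxal, had an A copy (BnaN08g27770) at 83.0, 403, 210, 934 and 71.6 FPKM from OV to DS, and a C copy (BnaN18g48890) listed at 0 throughout. Its A copy was thus highest at MG. CAT1, a catalase that breaks down hydrogen peroxide, had an A copy at 23.8, 49.8, 45.5, 146 and 427 FPKM and a C copy at 0.0978 FPKM or less, on a rare combination (BnaN07 with BnaN15). The A copy of CAT1 was highest in the oldest seed. SAPX, a chloroplast ascorbate peroxidase, had A at 25.1, 25.5, 22.6, 31.2 and 13 FPKM and C at 11.3, 11.4, 10.6, 9.37 and 4.52 FPKM. SAPX was thus a pair in which C stayed readily detected and A stood close to the 2-fold limit at OV, GLOB and HEART. Its log2 ratio was 1.64 at MG and 1.34 at DS.

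MT2B, a metallothionein that binds metal ions, had the highest sum of the 109 and was the only pair with both copies at 10 FPKM or more throughout. Its A copy had 81.5, 760, 308, 3638 and 643 FPKM from OV to DS. Its C copy had 36.5, 204, 104, 669 and 181 FPKM at these stages. Both copies followed the same course, with a correlation of log2(FPKM + 1) over the 5 stages of 1.00, and the log2 ratio ran between 1.14 (OV) and 2.44 (MG).

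**Figure D4:**
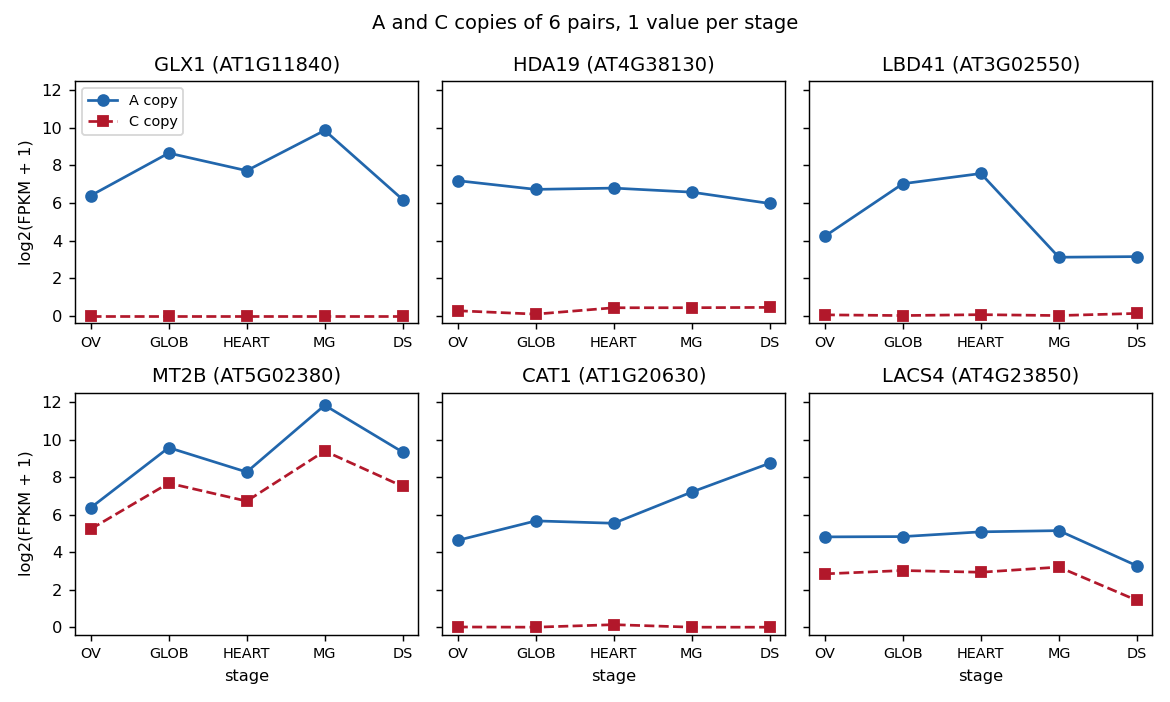
Level of the A copy (blue circles) and C copy (red squares) as log2(FPKM + 1) (vertical) by stage (horizontal) for 6 pairs, 1 deposited value per point. GLX1, HDA19, LBD41 and CAT1 have a C copy at or near 0 throughout. The C copy of LACS4 runs nearly parallel to its A copy at a lower level. The C copy of MT2B follows the course of its A copy, with a gap that is smallest at OV and largest at MG.

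LACS4, a long-chain acyl-CoA synthetase, had A at 27.1, 27.4, 32.9, 34.4 and 8.68 FPKM from OV to DS and C at 6.17, 7.12, 6.61, 8.22 and 1.69 FPKM. Both copies were lowest at DS, and the log2 ratio stayed between 1.81 and 2.15. VAMP713, a vacuolar SNARE of membrane fusion, had A between 18.6 and 33.3 FPKM and C between 5.48 and 10.0 FPKM. PME2, a pectin methylesterase of the cell wall, had A between 6.31 and 13.1 FPKM and C between 0.156 and 2.58 FPKM. FUT2, a cell wall fucosyltransferase homologue, had A between 2.54 and 14.9 FPKM and C at 0.545 FPKM or less. MEMB12, a Golgi SNARE, had A between 7.19 and 18.0 FPKM and C at 0.132 FPKM or less.

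UBC4, a ubiquitin-conjugating enzyme, had A at 16.3, 42.6, 44.9, 122 and 36.0 FPKM and C at 0.265, 2.24, 2.09, 4.22 and 1.57 FPKM, with both copies highest at MG. PLAT1, a PLAT-domain protein of stress responses, had A at 31.1, 64.0, 47.0, 42.9 and 129 FPKM and C at 1.86, 10.8, 12.7, 3.19 and 5.63 FPKM. Its A copy was highest at DS and its C copy at HEART. EMB1270, a pentatricopeptide repeat protein needed for embryo development in Arabidopsis, had A at 15.9, 15.2, 14.5, 31.1 and 60.7 FPKM and C between 0.618 and 3.15 FPKM. RNS2, an intracellular ribonuclease, had A at 20.8, 41.3, 37.6, 20.2 and 4.83 FPKM, and its C copy had 2.53 FPKM at OV and 0 FPKM at MG. UVR3, a DNA photolyase, had A between 6.44 and 9.74 FPKM and C at 0.697 FPKM or less. HSP60-3A, a mitochondrial chaperonin, had A between 8.44 and 19.7 FPKM and C at 0.858 FPKM or less.

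The median log2 ratio over the 109 pairs was 2.79 at OV, 3.09 at GLOB, 2.98 at HEART, 3.20 at MG and 3.07 at DS. Within a pair, the difference between its largest and smallest log2 ratio had a median of 1.43, and was 1.76 in the segments and 1.16 outside. In the 2516 other pairs it was 0.97. With C near 0 this difference mostly follows the A copy itself, and it was under 1 in 37 of the 109 pairs. RUS3, a member of the ROOT UV-B SENSITIVE family, had the smallest difference, with log2 ratios of 1.47, 1.67, 1.63, 1.66 and 1.40 from OV to DS. LACS4 (0.35), AT3G10210 (0.38), TGD4 (0.39) and SUN2 (0.40) came next. LBD41 had the largest, 4.50, and after it came CAT1 (4.12), GSTL3 (4.08), AT1G06990 (3.84) and GLX1 (3.69). In each of these 5 pairs the C copy had at most 0.103 FPKM. The smallest log2 ratio over stages was highest in GLX1 (6.18), HDA19 (5.54), AT3G08640 (5.38), AT3G10300 (5.03) and GSTL3 (4.71).

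**Figure D5:**
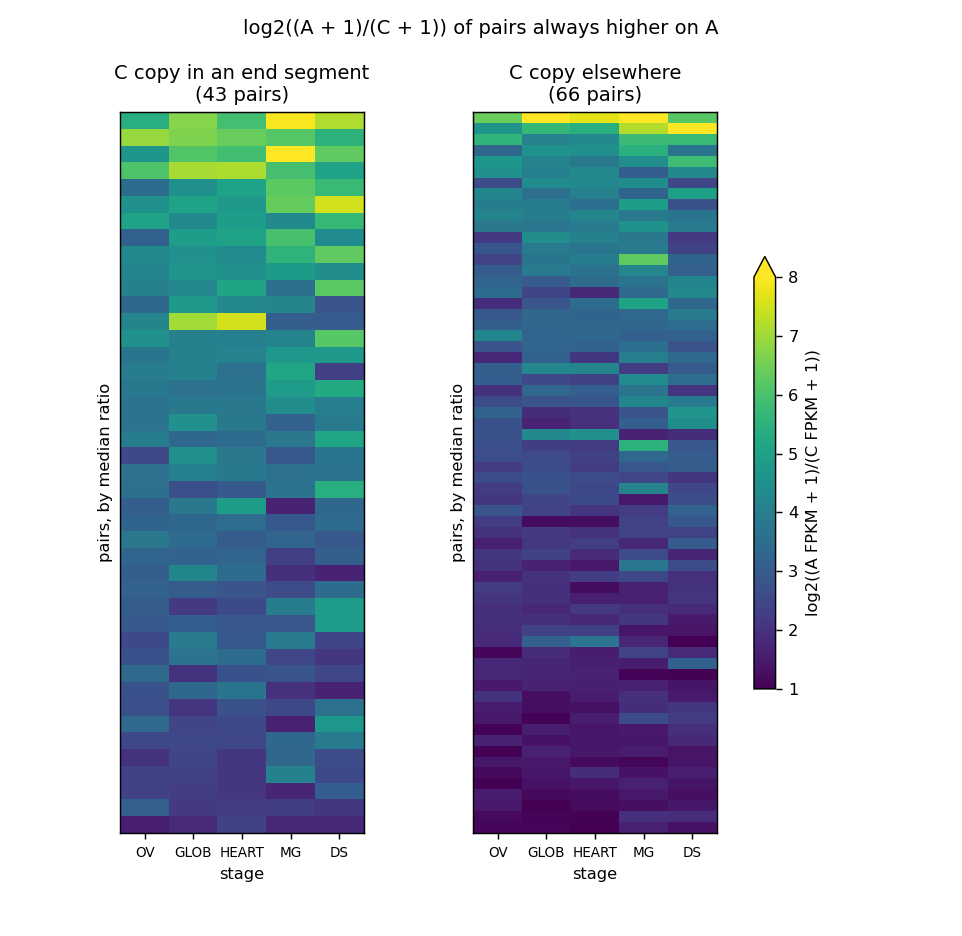
Log2((A + 1)/(C + 1)) (colour, from 1 to 8 and above) of each of the 109 pairs (rows, ordered by median ratio) at each stage (columns), with 43 pairs with the C copy in an end segment (left) and 66 with it elsewhere (right). The ratio changes by under 1 over the stages in 37 of the 109 rows, and its median is 3.68 on the left and 2.62 on the right.

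Where both copies were detected, their courses could be compared. Among the 40 pairs whose C copy reached 1 FPKM at some stage, all outside the segments, A and C were highest at the same stage in 22 (55.0%). In the other pairs with a sum of at least 2 FPKM this was so in 1554 of 2514 (61.8%). The median correlation of the 2 copies over the 5 stages was 0.852 in the 40 pairs and 0.865 in the other pairs. Each correlation has only 5 points, and both copies were measured in the same libraries. After MT2B, the highest correlations were those of AT5G49015, AT3G10210, AT1G55590 and AT3G01820 (0.99 each). Opposite courses were seen in single pairs. AT4G20440, which encodes a small nuclear ribonucleoprotein, had A at 28.6, 24.4, 22.4, 27.5 and 34.1 FPKM and C at 3.32, 7.00, 5.11, 2.37 and 0.553 FPKM, so that A was highest and C lowest at DS. This pair is on a rare combination (BnaN08 with BnaN17), and its C gene was matched to a Darmor A gene. On a frequent combination, AT2G22270 had a correlation of -0.88. Its A copy was highest (46.2 FPKM) and its C copy lowest (1.68 FPKM) at MG.

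The stage at which the A copy was highest differed among the 109 pairs. It was highest at DS in 43 pairs (39.4%, against 38.6% in the other pairs), at MG in 29 (26.6%, against 21.0%), at GLOB in 19 (17.4%, against 16.5%), at HEART in 9 (8.26%, against 8.07%) and at OV in 9 (8.26%, against 15.8%). These peaks hold for the deposited scale, on which mean levels per gene differed between stages. On BnaN11 outside its segment the mean was 4.02 FPKM at OV, 32.8 at MG and 10.2 at DS. Peak stages of the A copy were not recounted under another scaling. Between consecutive stages, steps of the A copy of at least 2-fold were counted on the log2(FPKM + 1) scale. Shares of the 109 are given beside shares of all pairs with a sum of at least 2 FPKM. The A copy was higher in GLOB than in OV in 23 pairs (21.1%, against 12.7% of all) and lower in 4 (3.67%, against 6.44%). It was higher in MG than in HEART in 26 pairs (23.85%, against 16.5%) and lower in 12 (11.01%, against 10.7%). It was higher in DS than in MG in 24 pairs (22.02%, against 21.1%) and lower in 19 (17.43%, against 17%). It was higher in HEART than in GLOB in 1 pair (0.917%, against 1.1%) and lower in 1 (0.917%, against 0.762%). A lead of A requires a detected A copy, and the A copies of the 109 were higher. Their mean over stages had a median of 14.4 FPKM, against 6.67 FPKM in the other pairs. On the log2(FPKM + 1) scale steps of low copies are damped, so the level alone can raise the shares of the 109. These shares are therefore not set against a test.

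Pairs near the limit showed how the rule divided them. Just inside were KCA1 (AT5G10470), a kinesin-like protein, whose smallest log2 ratio was 1.00 at DS (0.95 with stages scaled to a common sum and 0.94 after quantile normalization, both outside the limit), and AT5G49015 and AT3G01820, both at 1.02. Just outside was AT5G15760, with log2 ratios of 1.07, 1.14, 1.75, 1.43 and 0.995 from OV to DS. AT1G18600 and AT2G25300 were also just outside, each with a smallest log2 ratio of 0.98. The 77 pairs always higher on C had a median log2 ratio of -1.94, and the 66 pairs always higher on A outside the segments had 2.62. Of these 66, the 20 on rare combinations had a median of 2.99 and the 46 on frequent ones 2.07. The 77 pairs were not split in this way.

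The 5 pathways examined as lists held none of the 109 pairs. Of 22 loci of DNA replication, repair and recombination, 7 formed a pair and 3 of these had a sum of at least 2 FPKM throughout. For chlorophyll and haem synthesis these numbers were 20 loci, 5 pairs and 4 with that sum, and for plastid isoprenoid and carotenoid synthesis 20, 6 and 4. For DNA methylation and small RNA they were 20, 6 and 3, and none of 22 loci of the 26S proteasome formed a pair. With 4.15% of pairs always higher on A in all, so few pairs do not set these pathways apart from the background.

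The identifiers of cultivar Darmor, which the table sets beside those of DH12075, carry a subgenome letter of their own. The letters were A for the A copy and C for the C copy in 82 of the 109 pairs (75.2%), against 83.0% of the pairs with a sum of at least 2 FPKM. In the segments this was so in 27 of 43 (62.8%), and both genes of a pair were matched to the same Darmor gene in 14 (32.6%). Outside the segments the letters were A and C in 55 of 66 (83.3%) and the Darmor gene was shared in 3 (4.55%). The share of pairs with 1 Darmor gene was 36.3% among all 91 pairs of the segments, whatever their level, and 18.3% among the pairs elsewhere. Its part in the low C levels was not tested.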

How the data were processed

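Per the labels, polyadenylated RNA from 14 libraries was sequenced as single-end reads of 100 bases. Per the series' design text, the authors trimmed reads with Trimmomatic 0.36, aligned them to the DH12075 genome with HiSat2, and quantified with Cuffquant and Cuffdiff. The submitters' processing notes also name FastQC, TopHat2 and Cuffnorm. The authors deposited FPKM values, 1 per gene and stage, and how libraries were pooled is not given in the sources used here. The 2 columns that match no sample were not used.

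Pairs, ratios (pseudocount 1) and windows were computed with Python 3.11.15, pandas 2.3.3 and numpy 2.4.6, and figures with matplotlib 3.10.9. The functions were tested on simulated data. The planned limma fit needs values per library and could not be run, so no p-value is given. The members and lists were chosen with earlier results of these data known. Pairs named were those with the 10 highest sums, the 5 smallest and 5 largest spreads, the 5 highest smallest ratios, the 5 highest correlations, both copies at 10 FPKM, or the 3 nearest the limit on either side. Members with a neighbouring member are given by count. Other named loci, and the symbols, which come from general knowledge of Arabidopsis, were chosen after their values were seen. The table gives no symbols. A list of RefSeq genes matched 3 of 109 A copies and 3 of 109 C copies. No sequence was used here.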

Additional observations from a re-analysis of the deposited data

How the results depend on the processing

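Of 183 recomputed values, 148 kept their direction and stayed within 1.5 times the value reported. No paired analysis was possible because the table gives 1 value per stage and no libraries. For the same reason, leaving out single libraries was not run. Requiring a sum of 5 FPKM gave 68 pairs always higher on A and 42 always higher on C, with 40 C copies under 1 FPKM and 48 pairs with Darmor letters A and C. A sum of 20 FPKM gave 14, 11, 7 and 8, with a median spread of 2.30 and 2 pairs highest at the same stage. A ratio of 1.5 gave 178 on A and 150 on C, a median log2 ratio of 1.97, 66 pairs highest at the same stage and 145 with Darmor letters A and C. A ratio of 3 gave 39 on C and 7 highest at the same stage. With a pseudocount of 0.1 the median log2 ratio was 5.17, since C copies near 0 then weigh more.

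Alternatives chosen after seeing the data were also run. Without the end segments, 66 pairs were always higher on A, 26 had C under 1 FPKM and 2 had a neighbour among them. The number of pairs 2-fold higher on A minus that higher on C was then 12 at GLOB, against 65 with the segments. It turned negative at the other stages, to -11 at OV (45 with the segments), -14 at HEART (42), -26 at MG (30) and -40 at DS (8). The segments were drawn where C is near 0, so leaving them out could hardly change these numbers in the other direction. Other windows and limits also gave 43 pairs in the segments. Leaving out rare chromosome combinations gave 87 pairs always higher on A and 65 on C. The unknown depth limits every low value, so a C copy listed at 0 is not shown to be absent.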

Other observations

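Within the BnaN11 segment, 1 window stood out from the rest. It held genes 4851 to 4900 of the chromosome, of which 21 of 50 were detected, against 28 of 437 genes in the other windows. In this window, 42 of the 50 genes were matched to Darmor genes named BnaAnng02 or BnaAnng03, that is, to A genes without a known chromosome, and 17 of these 42 were detected. The other windows of the segment had 18 such genes. The window held no pair, so none of the 109 rests on it.

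Single genes in the BnaN12 segment were also detected. The highest, BnaN12g03140 (AT5G10360, a protein of the small ribosomal subunit), had 26.4, 41.6, 42.5, 169 and 184 FPKM from OV to DS. BnaN12g02830 (AT5G09810, an actin) had 10.4, 21.2, 17.5, 24.3 and 6.59 FPKM. Both belong to loci with more than 2 genes in the table, and reads shared with those copies cannot be told apart here.

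Both segments were low at every stage. Most of their genes belong to no pair and were used to draw the segments, so the low shares restate that choice. The share of their 987 genes at 1 FPKM or more was 4.56% at OV, 2.53% at GLOB, 3.24% at HEART, 3.65% at MG and 3.14% at DS, against 34.4% to 39.3% of the other C genes.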
